A study of Homo sapiens with 4 samples.

Results

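The FOS and JUN proteins form the AP-1 transcription factors, and the EGR proteins are zinc finger transcription factors. 10 of these immediate early genes were described: *FOS*, *FOSB*, *FOSL1*, *FOSL2*, *JUN*, *JUNB*, *JUND*, *EGR1*, *EGR2* and *EGR3*. They were chosen by gene name, and every probe of the array with such a name was taken, which gave 1 probe on 1 spot for each gene. Of the 10 genes 9 entered the analysis, out of 17938 genes with a symbol. *EGR3* did not, because its spot had a weight of 0 and was well above background on 0 of the 4 arrays.

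The arrays came from THP1 cells, a monocytic leukemia line of AML type M5 that carries the MLL-AF9 fusion. Knockdown treatments used siRNA-A or siRNA-B against the fusion breakpoint, and control treatments used 1 of the non-targeting siRNAs named control siRNA-1 and control siRNA-2. All 4 treatments shared the transfections on days 0, 3 and 6, the medium change on day 6 from 10% to 0.5% serum, and the harvest on day 8. Each treatment was 1 array with RNA pooled from 5 experiments, so that 2 knockdown arrays stood against 2 control arrays in 1 cell line. The 2 arrays of a group differed in siRNA, pool and slide position, and the p-values measured this mixed spread. They do not show the spread between the 5 experiments. The question was how the level of each factor differed after depletion of MLL-AF9.

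Immediate early genes are transcribed within minutes of a growth factor, a stress or a differentiation signal, without the need for new protein. FOS family proteins bind DNA as partners of JUN family proteins, whereas JUN proteins can also pair with each other. In myeloid cells AP-1 and EGR factors are known for their part in macrophage differentiation.

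The median log2 intensity of the arrays lay between 8.56 and 8.65. Of all spots 71.2% passed as well above background with siRNA-A and 70.0% with siRNA-B, against 74.3% in each control, and the part of this difference in the results was not tested. The fusion partner *MLLT3* (AF9) was lower after knockdown with both of its probes, by 0.76 and 0.63 on the log2 scale (both called), whereas the 4 *MLL* probes ranged from -0.41 to 0.05 and none was called. Where these probes lie relative to the breakpoint was not determined. Of 11 myelomonocytic marker genes 9 were measured, all 9 well above background on every array, and *ELANE*, the gene of neutrophil elastase, was called lower (-0.47). The calls of *ELANE* (-0.51 to -0.43) and of the weaker *MLLT3* probe (-0.74 to -0.52) were lost without any 1 of the 4 arrays, and both also with the scanner software's background-subtracted signal after scaling (-0.38 for *ELANE*, -0.83 for *MLLT3*). That of *ELANE* was lost as well with quantile (-0.38) and cyclic loess normalization (-0.36). The 4 measured T cell markers stayed between 5.52 and 6.44 on the log2 scale. All arrays shared 1 slide with each treatment at its own position, so treatment and position cannot be told apart.

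The regulatory sequence in front of these genes is shown for *FOS*, *FOSB* and *EGR2*, which differed most between knockdown and control, and for *JUN* and *EGR1*, whose high values fell in 1 knockdown and 1 control array each. The sequences are the 250 bases before the transcription start in RefSeq on GRCh38.p14, 5′ to 3′ on the strand of the gene. 8 of the 10 genes had an entry. Capitals mark the serum response element core (the CArG box, bound by SRF), the full cAMP response element TGACGTCA, the AP-1 site TGANTCA, the EGR site GCGNGGGCG and the cAMP response element core TGACG, each searched on both strands. The core is contained in the full element and was added after the promoters had been read.

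The promoter of *FOS* lay at chr14:75278578-75278827 (+), that of *FOSB* at chr19:45467746-45467995 (+), and that of *EGR2* at chr10:62816367-62816616 (-), the most downstream of 3 listed starts.
FOS: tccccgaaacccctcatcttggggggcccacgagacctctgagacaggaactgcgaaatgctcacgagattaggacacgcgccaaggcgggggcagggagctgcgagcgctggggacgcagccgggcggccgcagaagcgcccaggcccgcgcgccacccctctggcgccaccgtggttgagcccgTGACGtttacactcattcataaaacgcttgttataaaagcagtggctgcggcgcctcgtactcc
FOSB: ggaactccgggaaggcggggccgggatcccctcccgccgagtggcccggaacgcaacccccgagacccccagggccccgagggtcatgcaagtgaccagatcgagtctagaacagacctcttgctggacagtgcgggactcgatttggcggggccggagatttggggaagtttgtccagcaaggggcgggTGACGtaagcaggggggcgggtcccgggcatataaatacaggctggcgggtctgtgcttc
EGR2: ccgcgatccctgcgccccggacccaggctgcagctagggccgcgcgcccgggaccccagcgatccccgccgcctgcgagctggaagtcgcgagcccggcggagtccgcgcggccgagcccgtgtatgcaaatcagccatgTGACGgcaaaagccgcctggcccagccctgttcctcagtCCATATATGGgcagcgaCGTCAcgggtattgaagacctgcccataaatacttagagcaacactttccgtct

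The promoter of *JUN* lay at chr1:58784048-58784297 (-) and that of *EGR1* at chr5:138465229-138465478 (+).
JUN: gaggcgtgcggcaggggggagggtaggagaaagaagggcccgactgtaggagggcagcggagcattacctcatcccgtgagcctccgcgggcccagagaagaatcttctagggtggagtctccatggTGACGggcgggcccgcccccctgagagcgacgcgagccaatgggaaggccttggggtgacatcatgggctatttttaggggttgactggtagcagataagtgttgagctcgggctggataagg
EGR1: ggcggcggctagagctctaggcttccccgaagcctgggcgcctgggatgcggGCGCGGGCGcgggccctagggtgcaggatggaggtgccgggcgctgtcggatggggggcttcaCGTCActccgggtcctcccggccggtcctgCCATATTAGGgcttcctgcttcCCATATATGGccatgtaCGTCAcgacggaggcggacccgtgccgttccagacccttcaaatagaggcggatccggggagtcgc

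The core TGACG was present in 8 of the 10 windows of these 8 genes, the exceptions being the other starts of *EGR2*. It is present in 21.2% of 35116 promoters of the same length, but since the core was chosen from these windows nothing is read from the difference. In *FOS* it lay 64 to 60 bases and in *FOSB* 60 to 56 bases before the start. A CArG box was present in 2 of the 10 windows, with 2 matches in *EGR1* and 1 in *EGR2*, against 1.16% of all promoters. The full cAMP response element was found in *JUND* only among the 8 (1.65% of all promoters) and the EGR site in *EGR1* only (8.41%). The AP-1 site in the form TGANTCA was found in none of them (6.57%), and variants of it were not searched. These matches describe letters in the window and not binding, and sites further than 250 bases before the start were not searched.

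After knockdown 3 of the 9 factors rose, namely *FOS*, *FOSB* and *EGR2*, by 1.84-fold, 2.07-fold and 1.76-fold. A probe was called at an unadjusted p under 0.005 from limma, and the p given beside each value is adjusted over all probes. The threshold was passed by 0.584% of all 26219 probes as higher and by 0.732% as lower. None of the 9 was called lower. None had an adjusted p under 0.05, which 0.118% of all probes reached. An exact permutation test of 2 against 2 arrays cannot give a p below 0.333. The median log2 fold change of the 9 factors was 0.25, against -0.02 over all genes. In this bulk RNA more transcript per cell and more cells of an expressing state cannot be told apart.

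Of the 4 FOS family genes 2 were called. FOS is the prototype partner of JUN in AP-1. The *FOS* probe (A_23_P106194, NM_005252, hg19 chr14:75748214-75748273, +) gave a deposited intensity of 2611 with siRNA-A and 3630 with siRNA-B. It gave 1841 with control siRNA-1 and 1524 with control siRNA-2. Both knockdown arrays were above both control arrays, and siRNA-B was the highest. On the log2 scale the level was 11.59 ± 0.34 (SD, n = 2) after knockdown and 10.71 ± 0.19 (SD, n = 2) in the controls. The log2 fold change was 0.88 (SE 0.17, adjusted p = 0.182).

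*FOSB* encodes the FOS relative that, like FOS, carries a C-terminal activation domain. Its probe (A_23_P429998, NM_006732, hg19 chr19:45978205-45978264, +) gave an intensity of 186.5 with siRNA-A and 252 with siRNA-B, against 111 with control siRNA-1 and 99 with control siRNA-2. The groups did not overlap, and the order of the 4 arrays was the same as for *FOS*. The log2 level was 7.76 ± 0.31 (SD, n = 2) after knockdown and 6.71 ± 0.12 (SD, n = 2) in the controls. With a log2 fold change of 1.05 (SE 0.16, adjusted p = 0.0708) *FOSB* had the largest change of the 9 factors over all 4 arrays on the deposited intensity. After normexp background correction with quantile normalization *FOS* (0.88) was above *FOSB* (0.83).

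*FOSL1* and *FOSL2* encode the FOS-related antigens, which lack that activation domain. The *FOSL1* probe (A_23_P161624, NM_005438, hg19 chr11:65660098-65660157, -) gave 271 with siRNA-A, 318 with siRNA-B, 299 with control siRNA-1 and 273 with control siRNA-2. These arrays overlapped, and the log2 fold change was 0.04 (SE 0.13, adjusted p = 0.969). The *FOSL2* probe (A_23_P348121, NM_005253, hg19 chr2:28637175-28637234, +) gave 576 with siRNA-A and 603 with siRNA-B, against 526 and 461 in the controls. Both knockdown arrays were above both controls, but the log2 fold change of 0.26 (SE 0.12, adjusted p = 0.642) was not called.

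None of the 3 JUN family genes was called. JUN is the main DNA-binding partner of FOS, and its probe (A_33_P3323298, NM_002228, hg19 chr1:59246511-59246570, -) was the most variable of the 9. It gave 408.5 with siRNA-A and 992 with siRNA-B, and 796 with control siRNA-1 and 361 with control siRNA-2. High values thus stood in 1 knockdown and 1 control array, and low values in the other two. The controls alone differed by 2.20-fold, a gap that 0.156% of all probes equalled or exceeded. The log2 fold change of 0.25 (SE 0.43, adjusted p = 0.927) lay within this spread, with a 95% interval from -0.72 to 1.22.

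JUNB and JUND are JUN relatives, of which JUND is the more constantly expressed. The *JUNB* probe (A_24_P241815, NM_002229, hg19 chr19:12902998-12903057, +) gave 294 with siRNA-A and 351.5 with siRNA-B, against 283.5 and 299 in the controls, so that the groups overlapped (log2 fold change 0.14, SE 0.13, adjusted p = 0.831). The *JUND* probe (A_33_P3324909, NM_005354, hg19 chr19:18391371-18391430, -) gave 339 and 316 after knockdown with siRNA-A and siRNA-B, and 384 and 404 in the controls. It was the only factor of the 9 with both knockdown arrays below both controls. Its log2 fold change of -0.27 (SE 0.11, adjusted p = 0.606) was not called.

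Over the 9 factors 4 had both knockdown arrays above both controls (*FOS*, *FOSB*, *FOSL2*, *EGR2*), an order that 15.2% of all probes showed. 1 of the 9 had both below, as had 21.4% of all probes, and 4 overlapped.

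**Figure D1:**
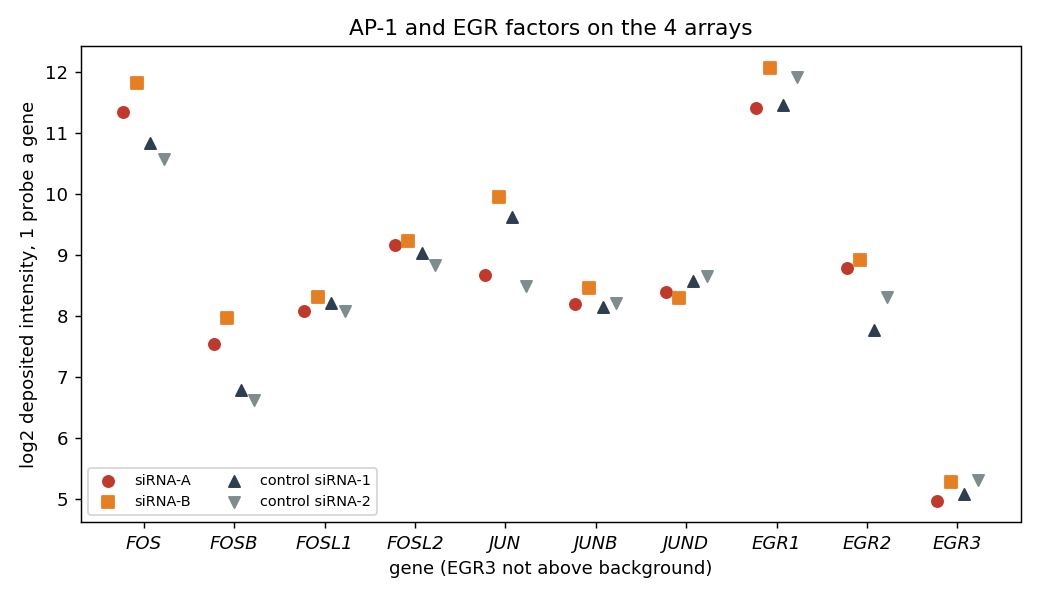
Log2 deposited intensity (y axis) of the 10 genes (x axis) on each of the 4 arrays, 1 point an array, to be compared within a gene only. Knockdown points of *FOS*, *FOSB*, *FOSL2* and *EGR2* lie above both control points, those of *JUN* alternate with them, those of *EGR1* lie on either side of both, and *EGR3* is not above background.

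Of the EGR family 2 of 3 genes were measured and 1 was called. EGR2 is a zinc finger factor of macrophage differentiation and nerve myelination. Its probe (A_23_P46936, NM_000399, hg19 chr10:64571850-64571909, -) gave 442 with siRNA-A and 488 with siRNA-B, against 218.5 with control siRNA-1 and 320 with control siRNA-2. The knockdown arrays were close to each other and above both controls, which differed by 1.46-fold. The log2 level was 8.86 ± 0.10 (SD, n = 2) after knockdown and 8.05 ± 0.39 (SD, n = 2) in the controls, a log2 fold change of 0.81 (SE 0.17, adjusted p = 0.229).

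EGR1 is the most widely studied EGR factor and shares the recognition sequence of EGR2. Its probe (A_23_P214080, NM_001964, hg19 chr5:137804891-137804950, +) gave 2725 with siRNA-A and 4328 with siRNA-B, and 2832 with control siRNA-1 and 3906.5 with control siRNA-2. High values stood in siRNA-B and control siRNA-2, and the controls differed by 1.38-fold. The log2 fold change was 0.05 (SE 0.22, adjusted p = 0.984), with a 95% interval from -0.46 to 0.56. *EGR3* gave 31.5 and 39 after knockdown and 34 and 40 in the controls, where the local background was 17 to 21, and it was not well above background.

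The 3 calls depended on single arrays and on the signal used. With a knockdown array left out, the other knockdown array is compared with the controls. The spread then comes from the control arrays and from the variance that limma shares over all probes. Such fits are the same as the comparisons of each siRNA given next. *FOS* stayed called without siRNA-A (log2 fold change 1.12). Its call was lost when the array of siRNA-B (0.64), of control siRNA-1 (1.01) or of control siRNA-2 (0.74) was left out. *FOSB* stayed called without either knockdown array (1.27 without siRNA-A, 0.83 without siRNA-B), and its call was lost without the array of control siRNA-1 (1.13) or of control siRNA-2 (0.97). *EGR2* stayed called without control siRNA-2 (1.09), and its call was lost without siRNA-A (0.88), without siRNA-B (0.74) and without control siRNA-1 (0.54). With the background-subtracted signal scaled to its 75th percentile none of the 3 was called, at log2 fold changes of 0.88 (*FOS*), 1.21 (*FOSB*) and 0.93 (*EGR2*). All 3 kept their direction in each of 11 alternatives.

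**Figure D2:**
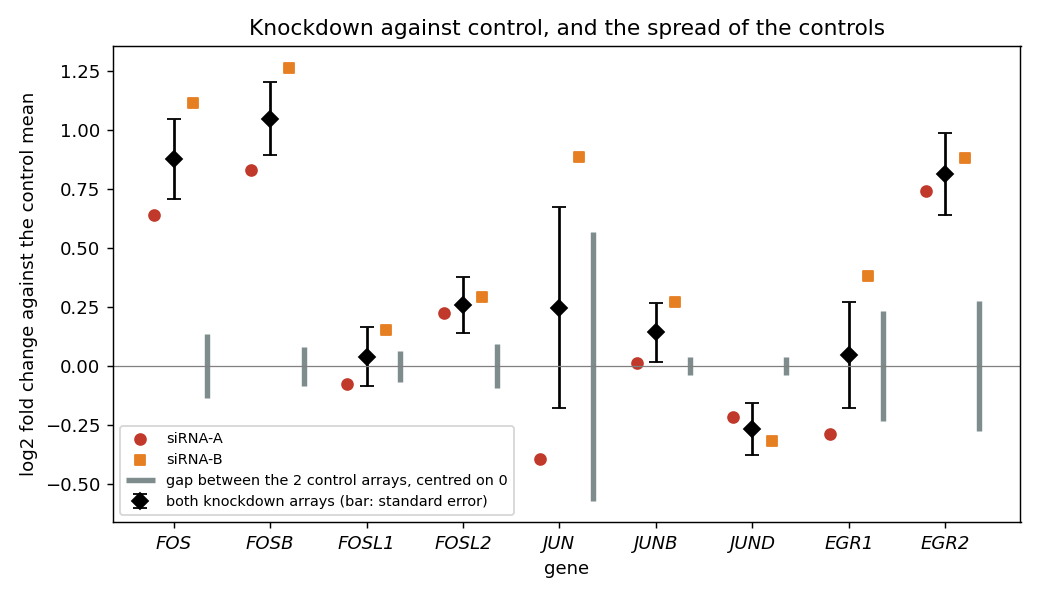
Log2 fold change against the mean of both controls (y axis) for the 9 measured factors (x axis): black diamonds are the knockdown mean with its standard error, circles siRNA-A and squares siRNA-B. The grey bar spans the gap between the control arrays, centred on 0, which at 1.14 is widest for *JUN*.

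Each siRNA was then compared with the controls on its own. Both comparisons shared the control arrays, and the lone knockdown array was assumed to vary like the controls. With siRNA-A 1 of the 9 factors was called, *FOSB*, which was 1.78-fold higher (log2 fold change 0.83, adjusted p = 0.511). A rise at this threshold was found for 0.519% of all probes. With siRNA-B 2 were called, *FOSB*, which was 2.40-fold higher (1.27, adjusted p = 0.518), and *FOS*, which was 2.17-fold higher (1.12, adjusted p = 0.518). Here 0.29% of all probes rose. No adjusted p was under 0.05 with either siRNA. With the scaled background-subtracted signal neither siRNA gave a call, and after quantile normalization *FOS* was not called with siRNA-B (log2 fold change 1.09).

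*FOS* was 1.56-fold higher with siRNA-A (0.64, adjusted p = 0.511) and did not pass the threshold there. *EGR2* was 1.67-fold higher with siRNA-A (0.74, adjusted p = 0.527) and 1.85-fold with siRNA-B (0.88, adjusted p = 0.539), and passed with neither. The spread in this fit comes from the 2 control arrays and from the variance that limma shares over all probes. *FOSL1* and *EGR1* lay on opposite sides of both controls, below them with siRNA-A and above them with siRNA-B, and 18% of all probes lay on opposite sides in either direction.

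The difference between the siRNAs was tested in the same fit, and 0 of the 9 factors were called, against 0.728% of all probes. At an unadjusted p under 0.05 there was 1 of the 9, against 8.95% of all probes. It was *FOSB*, for which siRNA-A minus siRNA-B was -0.43 (95% interval -0.85 to -0.02, adjusted p = 0.546), and it no longer passed that level after scaling of the background-subtracted signal (-0.32), quantile normalization (-0.39) or cyclic loess (-0.39). For *FOS* the difference was -0.48 (95% interval -1.02 to 0.07, adjusted p = 0.547). For *JUN* it was -1.28 (95% interval -3.20 to 0.64, adjusted p = 0.572), a gap between the knockdown arrays of 2.43-fold that sits beside the 2.20-fold gap between its controls. For *EGR2* the difference was -0.14. Each siRNA was 1 array, so the spread in these tests came from the control arrays and the variance shared over probes. They therefore cannot settle whether the siRNAs differed.

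The siRNA-B array was above the siRNA-A array for 8 of the 9 factors, all but *JUND*, and so it was for 61.7% of all probes. With the scaled background-subtracted signal these became 7 of 9 and 47.2%, and with quantile normalization 7 of 9 and 50.1%. *FOSL2* changed sign in both.

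The other genes of the pathway were described from lists, on the brightest probe of each gene. Calls in these lists compare both knockdown arrays with both control arrays, and calls with each siRNA alone are not given. Among 23 measured other immediate early genes 1 was called, *SGK1*, which encodes a serum- and glucocorticoid-regulated kinase. *SGK1* gave 425.5 with siRNA-A and 563 with siRNA-B, against 224 and 233 in the controls. Its log2 fold change was 1.10 (SE 0.15, adjusted p = 0.0405), and the call was lost without control siRNA-1 (1.07) or control siRNA-2 (1.13). The median of the list was 0.05, 15 genes had a higher and 8 a lower mean, and 0 were called lower. The list's other genes with an unadjusted p under 0.05 were *KLF4*, a monocyte transcription factor (0.48, adjusted p = 0.464), and *DUSP1*, a MAP kinase phosphatase (0.43, adjusted p = 0.490), named after their values were seen.

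Among 16 measured textbook targets of AP-1 and EGR factors 1 was called higher and 0 lower. This was *IL8*, the gene of a neutrophil-attracting chemokine. It gave 269 and 271 after knockdown with siRNA-A and siRNA-B and 161.5 and 184 in the controls, a log2 fold change of 0.65 (SE 0.12, adjusted p = 0.149). The call of *IL8* was lost without siRNA-A (0.65), siRNA-B (0.64) or control siRNA-1 (0.55). The median of this list was 0.07. *PLAU*, which encodes the urokinase protease and was named after its values were seen, was next at 0.32 (adjusted p = 0.565).

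In 6 further lists no gene was called in either direction. Over 16 bZIP partners of AP-1 the median log2 fold change was 0.04. All 4 EGR relatives and corepressors had lower means after knockdown (median -0.23), as did 10086 of 17938 genes, and their medians were -0.44 with siRNA-A and -0.03 with siRNA-B. *NAB1*, a corepressor of EGR factors, had the smallest p among them (-0.29, adjusted p = 0.691), while its other probe gave -0.04. Over 7 serum response and ternary complex factors the median was -0.13, with *MKL1*, a coactivator of SRF, at -0.28 (adjusted p = 0.607). In the other direction *ELK1*, named after its values were seen, was at 0.30 (adjusted p = 0.609), and at 0.03 and 0.04 on its other probes. Over 15 MAP kinases upstream the median was 0.02, with *MAPK11*, a p38 kinase, at -0.44 (adjusted p = 0.597) and at -0.25 on its other probe. The median was -0.08 over 10 heat shock and stress genes, where *DDIT3*, a stress-induced bZIP factor, had the smallest p (-0.18, adjusted p = 0.775).

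Interferon response genes, which double-stranded RNA can induce, were included because all treatments were siRNAs. Over 12 genes the median log2 fold change was 0.01, and *IFI44L* had the smallest p (0.70, adjusted p = 0.605). *IFI44L* gave 4656 with siRNA-A, 6882.5 with siRNA-B, 4870 with control siRNA-1 and 2493 with control siRNA-2. Like *JUN* it was high in siRNA-B, and its controls differed in the same direction. Whether interferon signalling had a part in the levels of *JUN* was not tested.

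Compared with the controls, siRNA-A alone and siRNA-B alone gave list medians of -0.10 and 0.25 for other immediate early genes, -0.02 and 0.19 for the targets, and -0.15 and 0.17 for interferon response genes. The 9 factors had medians of 0.01 and 0.38, and all genes -0.05 and 0.01. The siRNA-B array was above the siRNA-A array in 21 of 23 other immediate early genes, in 16 of 16 targets and in 12 of 12 interferon response genes, compared with 11467 of 17938 genes in all. It was above in 4 of 4 EGR relatives. It was also above in 14 of 16 bZIP partners, 6 of 10 heat shock genes, 7 of 15 MAP kinases and 3 of 7 serum response factors, for which the medians with siRNA-A and siRNA-B were -0.09 and 0.11, -0.10 and -0.05, -0.01 and 0.02, and -0.09 and -0.09 in this order. After scaling of the background-subtracted signal the counts of other immediate early genes, targets and interferon response genes were 20, 11 and 11 against 8810 of 17938. *BTG2*, an antiproliferative immediate early gene chosen here after its values were seen, gave 1218.5 with siRNA-A and 2938.5 with siRNA-B, on opposite sides of controls at 2142.5 and 1970.

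**Figure D3:**
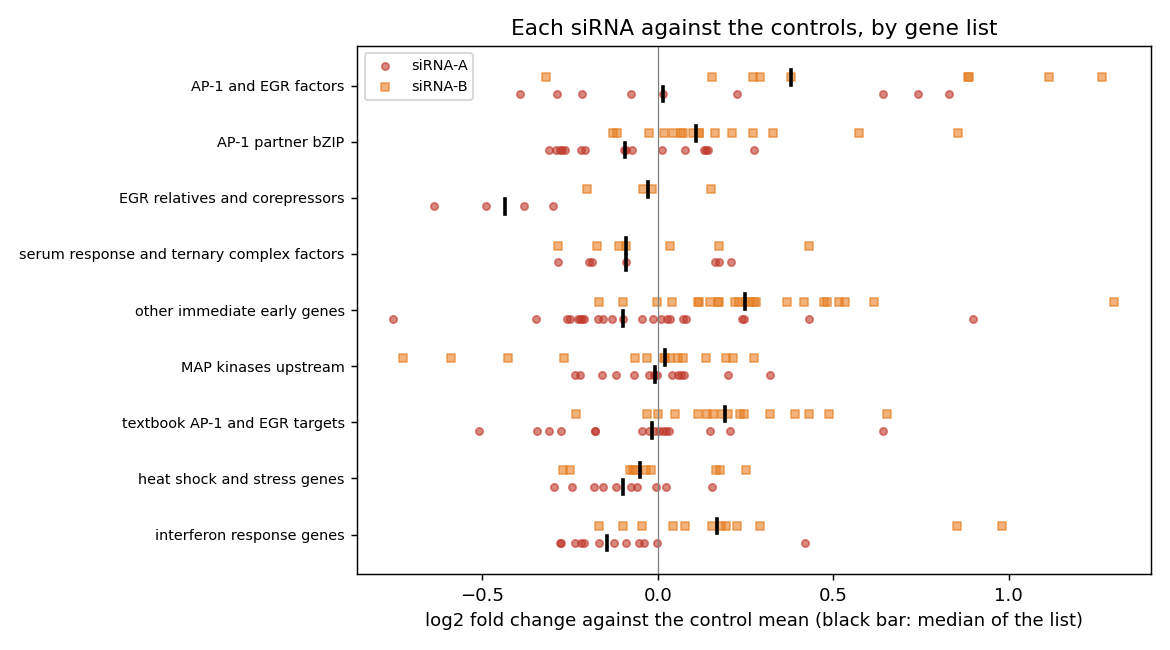
Log2 fold change against the control mean (x axis) of every measured gene of each list (y axis), with circles for siRNA-A, squares for siRNA-B and black bars for medians. The median of the squares lies to the right of that of the circles for the AP-1 and EGR factors (0.38 and 0.01) and for the other immediate early genes (0.25 and -0.10), and the square lies to the right of its circle in 8 of 9 and 21 of 23 genes.

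The genes most like a factor in their pattern were found by the Euclidean distance of log2 intensities centred over the 4 arrays, as a description. Nearest to *FOS* were *IFI30*, *LGALS2*, *FGL2*, *KIF26A* and *CD209*, at distances of 0.11 to 0.16. IFI30 is a lysosomal thiol reductase of antigen processing, LGALS2 a galectin and CD209 a lectin of dendritic cells and macrophages. Nearest to *FOSB* were *CD14*, *FGL2*, *SGK1*, *FOS* and *LGALS2*, at 0.12 to 0.20. CD14, a lipopolysaccharide co-receptor of monocytes, had log2 intensities of 8.39 with siRNA-A, 8.71 with siRNA-B, 7.52 with control siRNA-1 and 7.47 with control siRNA-2.

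*JUN* and *EGR1* were examined in the same way after their values were seen. Nearest to *JUN* were *MT1E*, *IFI44*, *ABCA1*, *SCN3A* and *COL9A1*, at larger distances of 0.26 to 0.53. The metallothionein gene *MT1E* had log2 intensities of 7.60 with siRNA-A and 8.74 with siRNA-B, and of 8.44 and 7.61 in the controls. Nearest to *EGR1* were *MLLT4*, *CLU*, *CD44*, *PCDHB11* and *CYBRD1*, at 0.05 to 0.14. With 4 arrays only such likeness is a weak description, and no factor other than *FOS* was among the genes listed.

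**Figure D4:**
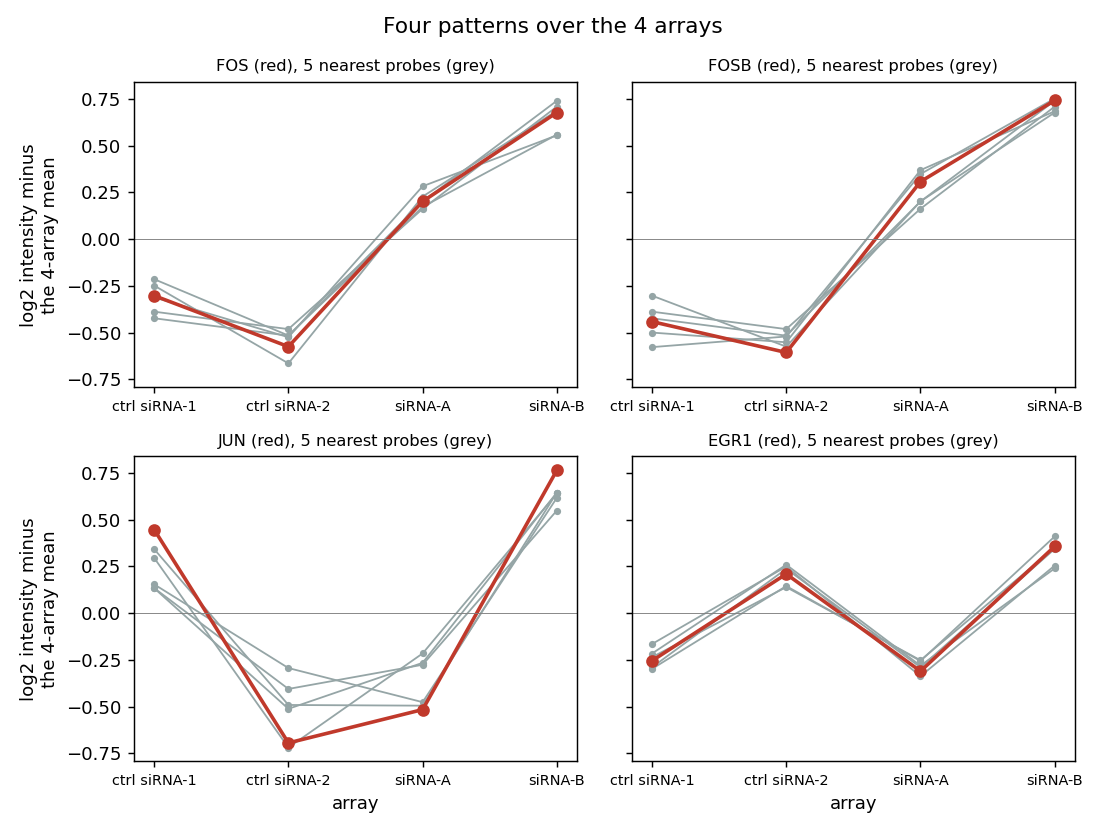
Log2 intensity minus the mean of the 4 arrays (y axis) on each array (x axis), with the named factor in red and its 5 nearest probes in grey; lines join the arrays for reading only. *FOS* and *FOSB* are low in both controls and high in both knockdowns, *JUN* is high in control siRNA-1 and siRNA-B, and *EGR1* in control siRNA-2 and siRNA-B.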

How the data were processed

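Expression was measured in THP1 cells on 4 single-colour Agilent 4x44K arrays, from 0.1 µg labelled RNA each. The authors read the scans with Agilent Feature Extraction 10.5.1.1 and deposited, for every spot, an intensity (the median pixel signal in 100% of spots) without background correction or normalization between arrays, and other values such as a spot weight and detection marks. How the weights were set is not given in the sources used here. Samples were grouped by the siRNA named in the labels, and 0 columns of sample values stayed unmapped. The sample titles number the knockdown siRNAs 3 and 4, which were read here as siRNA-A and siRNA-B in this order.

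Of 44495 spots 1377 control spots were left out. Spots with a weight above 0 on all arrays (33323) were averaged to 26219 probes. The log2 of these values was modelled in limma 3.58.1 (R 4.3.3), keeping the deposited weights, once as 2 knockdown against 2 control arrays and once with siRNA-A, siRNA-B and controls as 3 groups. All tests were two-sided. Probes were called at an unadjusted p under 0.005, and p-values were adjusted by Benjamini-Hochberg across the whole table. Precision is limited by the small number of arrays. The scripts were tested on simulated data.

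The members, lists and tests were chosen with earlier results of these data known. Named are every factor, called genes of the lists and, for lists without a call, the gene with the smallest p, except that 1 gene of the bZIP list is not reported here. Array names of genes were kept, and probe positions on hg19 are those of the array files, for which exons were not determined. Promoters came from RefSeq (GRCh38.p14). Alternatives were the software's background-subtracted signal scaled to its 75th percentile, quantile and cyclic loess normalization, normexp correction with an offset of 50, an unweighted fit, removal of dim probes, a variance that follows intensity, other call criteria, another probe of each gene, and each array left out in turn. The search for genes like *JUN* and *EGR1* and the promoter motif TGACG were added after seeing the data.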

Additional observations from a re-analysis of the deposited data

Results flagged for a closer look

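*FOSL1* and *EGR1* lay below both control arrays with siRNA-A and above both with siRNA-B, and 18% of all probes lay on opposite sides of both controls in either direction. For *FOSL1* the log2 fold changes were -0.08 and 0.15, a difference of siRNA-A minus siRNA-B of -0.23 (limma adjusted p = 0.585). For *EGR1* they were -0.29 and 0.38, a difference of -0.67 (limma adjusted p = 0.552). Neither difference passed the threshold.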

How the results depend on the processing

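The 3 calls among 9 factors after knockdown became 0 with the scaled background-subtracted signal and 0 at an adjusted p under 0.05, and ranged from 0 to 2 when 1 of the 4 arrays was left out. The 1 call with siRNA-A became 0 with the scaled signal. The 2 calls with siRNA-B became 0 with the scaled signal and 1 with quantile normalization. The comparison of siRNA-A with siRNA-B gave 0 calls throughout. Of 99 log2 fold changes after knockdown under the alternatives 82 kept their direction and side of the threshold, 11 lost the call and 6 changed sign. The sign changes came with 1 array left out, over which the log2 fold change ranged from -0.076 to 0.154 for *FOSL1*, from -0.39 to 0.89 for *JUN* and from -0.29 to 0.38 for *EGR1*, lowest without siRNA-B and highest without siRNA-A. *FOSL1* with siRNA-A turned to 0.027 after normexp correction. The siRNA-A minus siRNA-B difference of *FOSL2* turned to 0.025 with the scaled signal, 0.013 after quantile normalization, 0.012 after cyclic loess and 0.0058 after normexp correction. Among the list medians, that of the MAP kinases turned to -0.067 with the most regulated probe of each gene, that of the interferon response genes to -0.020 with the scaled signal, and that of the serum response factors shrank to -0.041 with the scaled signal. The median of the heat shock and stress genes moved to -0.0013 with quantile normalization and to -0.123 with the most regulated probe. That of the bZIP partners moved to 0.105 with quantile normalization and 0.011 with the most regulated probe. Quantile normalization also gave 0.056 for the MAP kinases, 0.050 for the interferon response genes and 0.091 for the other immediate early genes. Without a control array the separate siRNA comparisons have no residual degrees of freedom and gave values with no test. The cause of these changes was not tested. Over all 26219 probes 345 were called, against 226 with the scaled signal, and the number with an adjusted p under 0.05 fell from 31, *SGK1* among them, to 0 with the scaled signal and with each of the quantile, loess and normexp settings. No paired analysis was possible because each array was a pool of 5 experiments, so that single experiments could not be matched between arrays. Levels near background, as for *EGR3*, could not be measured.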
